A study of Homo sapiens with 28 samples.

Results

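RNA from AN3CA cells expressing ARID1A 42YS, a variant named in the labels for a tyrosine-to-serine change, was compared with RNA from AN3CA cells expressing wild-type ARID1A. AN3CA is an established human endometrial carcinoma line. The comparison used 4 of the 28 libraries of the series: 2 of 42YS and 2 of wild-type (WT), chosen by their labels and read from the counts of the strand opposite to each gene. Every gene was also read with both strands counted together. A further 2 libraries of ARID1A AQGscramC1C2, another variant (AQGscram below), and 4 of an empty vector served as references. Side comparisons used 2 libraries each of ARID1B WT and of the ARID1B variants A457_G461del, Block13del and Block9del. They also used 2 each of the ARID1A constructs delIDR1, DBDmut and CBR. The series also holds 2 libraries each of ARID1A DDX4 and ARID1B S320_G327del. These entered the fit over all 28 libraries and the ranges given below for other constructs and other libraries. All of these cells were untreated, and the labels give neither the promoter nor the vector of the constructs, nor whether a line is 1 clone. Separate cultures for the replicates are not stated either, so each p-value rests on spread between libraries of a group, which may be technical. In the main fit the 4 empty vector libraries are 1 group, so a difference between its pairs also enters that spread.

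ARID1A and its paralogue ARID1B are alternative large subunits of cBAF, a form of the SWI/SNF family of chromatin remodelers. These complexes use ATP to move or evict nucleosomes, and cBAF acts mostly at enhancers. ARID1A is among the genes most often inactivated in endometrial carcinoma. Long stretches of the protein have no fixed fold and are rich in a few amino acids, tyrosine among them, and tyrosines in such stretches are known to take part in weak contacts between protein chains. The title of the series places the work in the condensation of cBAF through ARID1A and ARID1B.

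The labels write the variant as Y42S in one field and as 42YS in another. In the GENCODE reference transcript of ARID1A (GRCh38), codon 42 is GCG and does not encode tyrosine. The 2285 codons of that transcript hold 78 tyrosine codons, of which 43 are TAT and 35 are TAC. The first is codon 148 and the last is codon 2254. Counted in order, tyrosine codon number 42 is codon 948 and number 43 is codon 1012. This count does not show which of them were changed. Which tyrosines the construct changes is not given in the labels used here, so the reading of the name was not settled. The stretches below are shown because they bear on that name: the first holds codon 42 in capitals (codons 36 to 48, chr1:26696509-26696547, plus strand, exon 1), and the others are the tightest runs of 5 tyrosine codons in 2 exons, with those codons in capitals (codons 210 to 231, chr1:26697031-26697096, exon 1, and codons 393 to 432, chr1:26729690-26729809, exon 2).
codon 42: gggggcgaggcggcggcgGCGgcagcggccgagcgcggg
codons 210 to 231: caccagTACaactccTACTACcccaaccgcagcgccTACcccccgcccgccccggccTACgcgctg
codons 393 to 432: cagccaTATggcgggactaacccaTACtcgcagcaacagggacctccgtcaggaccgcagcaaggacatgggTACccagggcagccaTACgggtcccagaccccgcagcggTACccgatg

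The 42YS libraries held 23.5 and 24.3 M reads on genes and the WT libraries 17.4 and 21.7 M, so a level of 1 count per M reads (CPM) rests on roughly that many reads of a gene. Replicates agreed closely, with a chi-square per degree of freedom over genes of 1.37 for 42YS and 1.86 for WT. The AQGscram replicates stood apart from each other at 30.4, against 1.18 to 4.97 for the other constructs. The strand profile split the series: the opposite strand held 97.1 and 97.2% of stranded gene reads in 42YS, against 87.3 and 87.8% in WT. Libraries with the profile of 42YS (96.7 to 97.9%) were those of AQGscram and 3 ARID1B variants, and no empty vector library was among them. Construct and library profile therefore cannot be told apart between 42YS and WT. Reads outside genes also differed, at 17.3 and 17.1% in 42YS against 12.4 and 12.8% in WT.

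ARID1A itself, which checks the labels, had 373 and 375 CPM in 42YS, against 702 and 764 CPM in WT. Both 42YS libraries lay well below both WT libraries, by a log2 fold change of -0.97 ± 0.099 (SE; edgeR quasi-likelihood test with Benjamini-Hochberg adjustment, adjusted p = 1.61e-07). Empty vector libraries had 272 to 300 CPM, so ARID1A reads in 42YS were above that level by a log2 fold change of 0.37 (adjusted p = 0.00229) and above the 284 and 210 CPM of AQGscram by 0.60 (adjusted p = 0.000392). AQGscram was thus not above the empty vector range. The ARID1B variants A457_G461del, Block13del and Block9del, whose libraries have a strand profile like that of 42YS, had 203 to 250 CPM. Reads of the construct and of the cells' own gene are counted together, so the level of construct RNA alone was not measured. In these bulk libraries fewer cells carrying the construct and less RNA per cell cannot be told apart. The part of the lower ARID1A reads in the results that follow was not tested. ARID1B, the paralogue, had 69.0 and 71.5 CPM in 42YS against 65.6 and 68.7 CPM in WT, and was not called (adjusted p = 0.578).

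**Figure D1:**
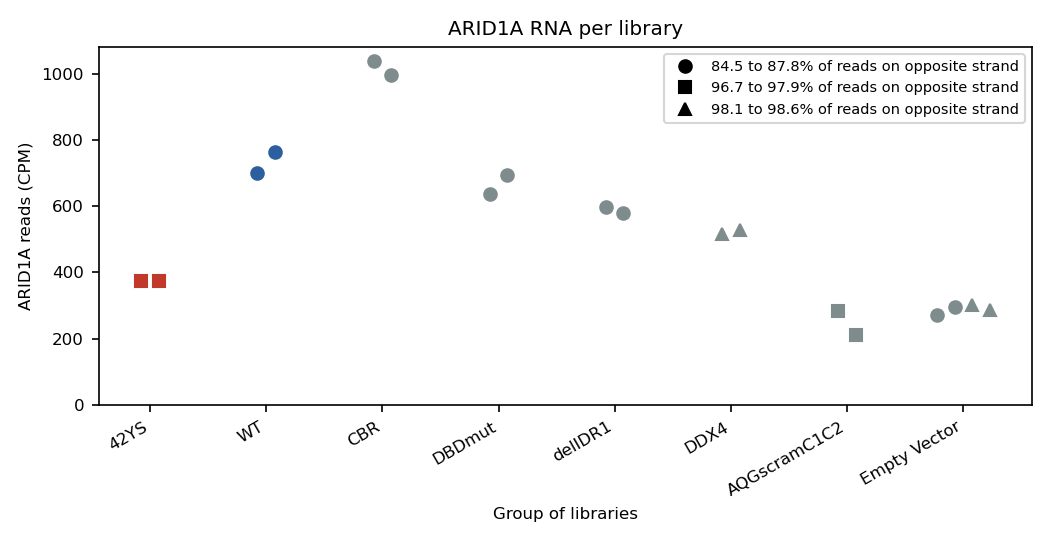
ARID1A reads in CPM per library (points) for 42YS, ARID1A WT, the other ARID1A constructs and the empty vector, with marker shapes for the share of stranded gene reads on the opposite strand. The 2 libraries of 42YS sit at 373 and 375 CPM, below WT at 702 and 764 CPM and above the empty vector at 272 to 300 CPM.

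Among the other subunits of BAF-family complexes, BCL7A fell most, to 43.8 and 48.0 CPM in 42YS, against 96.2 and 98.7 CPM in WT. That is a log2 fold change of -1.09 ± 0.064 (adjusted p = 6.47e-11), and the groups did not overlap. The share of all tested genes without overlap is not given here. A lack of overlap, here and below, therefore only describes the genes named and is not further evidence for a change. SMARCD3, an accessory subunit of muscle and heart complexes, fell to 64.7 and 67.7 CPM against 91.6 and 93.3 CPM (log2 fold change -0.48). GLTSCR1L, a subunit of the non-canonical complex, rose by 0.44 and BRD9, its bromodomain partner, by 0.26. Of 27 tested subunits, ARID1A included, 6 rose (3 or 4 with 1 of the 4 libraries left out) and 3 fell, with a median log2 fold change of 0.05, while 24.5% of all 14220 tested genes rose and 25.3% fell. SMARCA4, the catalytic ATPase, had 385 and 384 CPM in 42YS and 389 and 380 CPM in WT, and was not called (adjusted p = 0.997).

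Over all genes, 3489 were higher and 3598 lower in 42YS than in WT, which is 49.8% of those tested, and the median log2 fold change was 0.02. The largest changes were falls. At least 2-fold, 465 genes rose (3.27% of those tested) and 1577 fell (11.1%). With the genes limited to an average log2 CPM of at least 1, 217 of 11507 rose and 801 fell at least 2-fold. Of the 7087 genes called, 6553 had the same call without strand, 441 were not called, 85 were not tested there and 8 had the opposite call. SNX22 was one of these, with a log2 fold change of -3.62 on the opposite strand and 1.30 without strand. Among 14069 genes tested both ways, 3275 rose and 3278 fell in both (23.3% each), and 418 rose (2.97%) and 1316 fell (9.35%) at least 2-fold in both. Of 155 called changes of genes picked by the naming rule or for their role, 153 had the same call without strand. The exceptions were the BAF subunits SMARCC2 (adjusted p = 0.0758 without strand) and BCL7C (adjusted p = 0.164).

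The 12 largest falls by fitted fold change, under the naming rule, were in genes that WT cells expressed and 42YS cells hardly did. TNC, which encodes the matrix glycoprotein tenascin C, had 0.170 and 0.577 CPM in 42YS, against 135 and 147 CPM in WT. MMP2, the gelatinase that cleaves denatured collagen, had 0.212 and 0.412 CPM in 42YS, against 88.8 and 86.1 CPM in WT. For both genes every 42YS library was below 1 CPM and every WT library at 86.1 CPM or more, with log2 fold changes of -8.53 ± 0.759 (adjusted p = 2.47e-08) and -8.10 ± 0.209 (adjusted p = 2.55e-16). ATP8B1, a phospholipid flippase, had 0.425 and 0.247 CPM in 42YS against 70.1 and 70.4 CPM in WT, a log2 fold change of -7.69 that was -5.88 without strand. LRRC15, a leucine-rich repeat membrane protein, had 0.0849 and 0.247 CPM in 42YS against 46.7 and 48.9 CPM in WT. COL12A1, a collagen that attaches to fibrils, had 0.127 and 0.165 CPM in 42YS against 34.5 and 32.7 CPM in WT. The groups were again far apart, with log2 fold changes of -8.11 and -7.79.

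The remaining large falls rest on 0 to 3 reads in 42YS, so their fitted fold changes are not bounds. CACNG4, an auxiliary subunit of AMPA-type glutamate receptors, had 0 reads in the 42YS libraries and 506 in the WT libraries. Set against a floor of 3 counts over the group it was at least 210-fold lower in 42YS. ISLR, a secreted leucine-rich repeat protein, also had 0 reads, against 83, and was at least 34.4-fold lower, so its place among the 12 rests on the fitted value. ALPK2, an alpha-kinase, had 2 reads in 42YS against 795 in WT, a WT to 42YS ratio of normalized counts of 495 (95% counting interval 137 to 4090). PTPRO, a receptor tyrosine phosphatase, also had 2 reads, against 697 (ratio 434, interval 120 to 3590), as did DCX, a microtubule protein of migrating neurons, against 474 (ratio 295, interval 81.2 to 2440). CAPN6, a calpain without protease activity, had 3 reads against 566 (ratio 235, interval 79.9 to 1140), and SEMA5B, a transmembrane semaphorin, had 1 against 200 (95% counting interval of the ratio 44.2 to 9880). Intervals and floors cover counting error only. In all these genes 42YS libraries were near 0 and WT libraries above them, although WT was itself low at ISLR, with 83 reads. The empty vector libraries averaged 0 to 0.236 CPM at these genes.

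**Figure D2:**
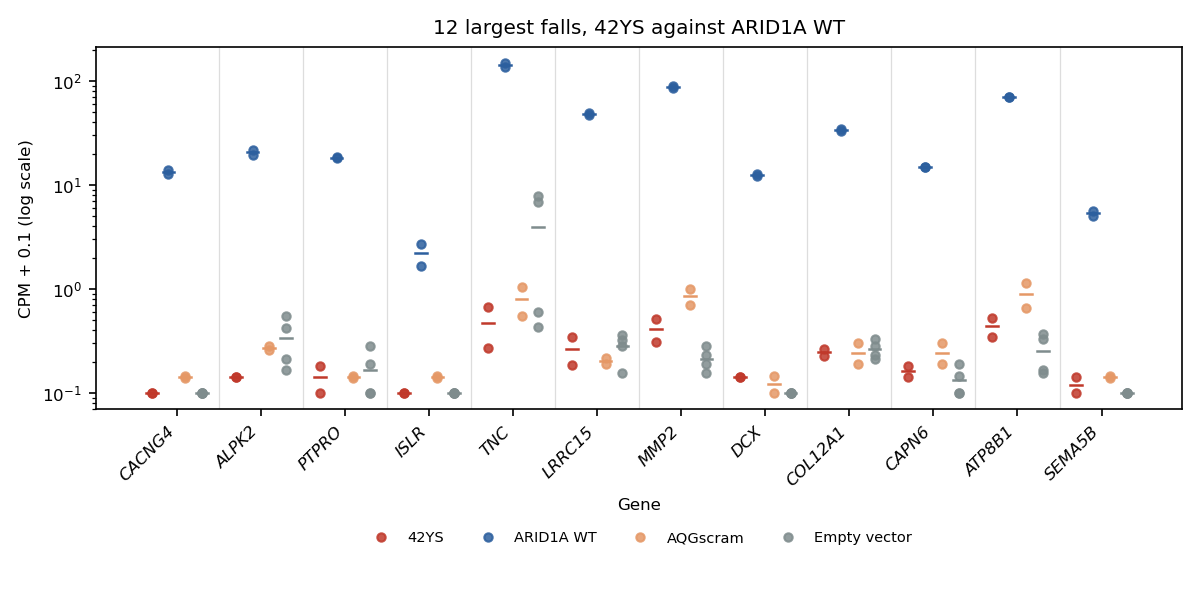
CPM plus 0.1 on a log axis for the 12 largest falls, one point per library and a bar at each group mean, for 42YS, ARID1A WT, AQGscram and the empty vector. WT stands above the other groups at each of these genes. TNC in the empty vector divides into a pair at 7.66 and 6.74 CPM and a pair under 1 CPM.

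Most matrix genes fell. Of 30 tested matrix glycoproteins and proteoglycans, 23 fell and 1 rose, with a median log2 fold change of -2.09 against 0.02 for all genes. LAMB1, a laminin chain of basement membranes, had 12.5 and 13.7 CPM in 42YS against 325 and 330 CPM in WT (log2 fold change -4.64 ± 0.084, adjusted p = 3.05e-18). SPARC, a collagen-binding glycoprotein, had 58.3 and 61.8 CPM in 42YS against 413 and 414 CPM in WT (-2.79). The elastic fibre protein gene ELN had 0.340 and 0.165 CPM in 42YS against 43.8 and 46.7 CPM in WT (-7.46). FN1, encoding fibronectin, was the 1 member that rose, with 58.8 and 60.8 CPM in 42YS against 25.7 and 27.1 CPM in WT, a log2 fold change of 1.18 ± 0.103 (adjusted p = 1.78e-08). The fibronectin receptor subunit ITGA5 moved the other way, to 1.32 and 1.07 CPM in 42YS against 28.7 and 29.0 CPM in WT.

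Of 24 tested collagens 19 fell and 2 rose (median -1.50). COL1A1, the main chain of type I collagen, had 0.765 and 0.947 CPM in 42YS against 88.4 and 90.2 CPM in WT, and COL18A1, the source of endostatin, had 40.9 and 44.3 CPM against 217 and 215 CPM. The 2 that rose were COL7A1 (0.61), whose call was lost with any 1 of the 4 libraries left out (adjusted p = 0.074 to 0.0957), and COL27A1 (0.50). Of 22 matrix proteases, crosslinkers and inhibitors 13 fell and 2 rose, or 0 or 1 with 1 of the 4 libraries left out (median -1.09). TGM2, the tissue transglutaminase that crosslinks matrix proteins, had 2.55 CPM in each 42YS library against 179 and 177 CPM in WT. LOXL2, a lysyl oxidase, had 13.2 and 14.3 CPM against 233 and 236 CPM. Both genes were low in each 42YS library and high in each WT library, with log2 fold changes of -6.12 and -4.09.

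Most genes that tie cells to the matrix fell too. Of 25 tested integrins and adhesion adaptors 21 fell and 1 rose (median -1.29). ITGB5, a subunit of a vitronectin receptor, had 60.2 CPM in each 42YS library against 363 and 359 CPM in WT (-2.58 ± 0.078). VCL, the actin linker vinculin, had 288 and 281 CPM against 919 and 947 CPM (-1.71), and PXN, the scaffold paxillin, 53.6 and 50.5 CPM against 191 and 198 CPM (-1.91). Groups did not overlap at any of the 3. Among 16 mesenchymal genes and regulators 12 fell and 3 rose (0 to 2 with 1 of the 4 libraries left out): TPM1, an actin-binding tropomyosin, fell by 3.23 on the log2 scale and TAGLN, a smooth muscle actin-binding protein, by 4.07. VIM, encoding vimentin, was among those that rose, with 5860 and 5830 CPM in 42YS against 4180 and 4210 CPM in WT (0.48, adjusted p = 0.0477). The call of VIM was lost with any 1 of the 4 libraries left out (adjusted p = 0.122 to 0.142).

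TEAD and YAP form a transcription factor and coactivator pair that responds to cell shape and adhesion. Of 23 tested target genes of the pair 20 fell and 1, FOXF2, rose (median -1.36). FOXF2 was not called without 42YS replicate 1 (adjusted p = 0.112) or WT replicate 2 (adjusted p = 0.0552). AXL, a receptor tyrosine kinase, had 3.31 and 3.09 CPM in 42YS against 47.1 and 49.2 CPM in WT (-3.91 ± 0.126, adjusted p = 5.29e-15). CYR61, a secreted matrix-associated protein, had 18.7 and 19.2 CPM against 169 and 170 CPM, and its relative CTGF 2.55 and 2.51 CPM against 32.5 and 38.5 CPM. The 42YS libraries were lower at each of these genes without overlap. On the scale of log2 (CPM + 0.1), CYR61 averaged 4.25 in 42YS, 7.41 in WT, 4.34 in AQGscram and 5.82 in empty vector replicates 1 and 2. In the same order CTGF averaged 1.395, 5.15, 1.30 and 3.96, and AXL 1.72, 5.59, 2.955 and 1.67. CYR61 and CTGF were thus higher in these empty vector libraries than in 42YS, and AXL was not. In the set-matched comparison of other libraries described below, 16 of the 23 were also lower.

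Sequences upstream of the largest falls and rises were read from RefSeq (GRCh38.p14) as the 250 bases before a gene start. Windows were found for 15 of the 24 genes, some with several starts. They were searched on both strands for TGANTCA, the letters bound by AP-1 factors, and GGAATG, those bound by TEAD factors. TGANTCA was found in 10.5% of 899 genes that were at least 2-fold lower in 42YS in both readings, in 10.1% of 267 that were at least 2-fold higher and in 6.14% of 10223 tested genes. GGAATG was found in 18.0, 13.1 and 13.3% of the same sets, and the 2 motifs occurred in 6.57 and 11.9% of all 35116 windows. The share with TGANTCA was thus alike on the lower and the higher side. Of the named genes, the 3 falls with a match are shown with the match in capitals: LRRC15 (chr3:194369744-194369993, minus strand), CAPN6 (chrX:111270484-111270733, minus strand) and COL12A1 (chr6:75206054-75206303, minus strand). A match is only a match of letters. Among the rises, 1 of the windows of PRLR held TGANTCA.
LRRC15: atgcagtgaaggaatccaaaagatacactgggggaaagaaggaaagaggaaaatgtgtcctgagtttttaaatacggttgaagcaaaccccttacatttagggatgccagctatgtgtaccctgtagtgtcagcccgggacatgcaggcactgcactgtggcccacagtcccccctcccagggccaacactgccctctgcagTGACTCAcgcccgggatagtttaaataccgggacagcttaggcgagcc
CAPN6: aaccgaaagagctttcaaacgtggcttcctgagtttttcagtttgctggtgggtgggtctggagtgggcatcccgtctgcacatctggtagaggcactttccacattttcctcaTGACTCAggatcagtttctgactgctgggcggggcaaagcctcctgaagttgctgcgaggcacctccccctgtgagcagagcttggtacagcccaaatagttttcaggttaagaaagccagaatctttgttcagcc
COL12A1: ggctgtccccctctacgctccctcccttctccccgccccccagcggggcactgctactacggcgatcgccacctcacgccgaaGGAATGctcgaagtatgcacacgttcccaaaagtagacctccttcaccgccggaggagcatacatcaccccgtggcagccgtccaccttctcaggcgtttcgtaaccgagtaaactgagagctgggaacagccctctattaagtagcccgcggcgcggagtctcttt

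Genes of axon guidance and neuronal adhesion mostly fell, with 23 of 28 tested members lower and 1 higher (median -1.66). SEMA3F, a secreted repulsive guidance cue, had 41.3 and 42.6 CPM in 42YS against 283 and 272 CPM in WT (-2.72 ± 0.068, adjusted p = 2.55e-16). L1CAM, a neural adhesion molecule, had 1.27 and 1.44 CPM against 22.1 and 23.3 CPM (-4.06). SEMA6A, a transmembrane semaphorin, was the member that rose, with 361 and 363 CPM against 259 and 275 CPM (0.44).

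Signalling genes were lower more often than higher. Of 35 TGF-beta and BMP genes 19 fell and 6 rose (median -0.83). FSTL1, a secreted modulator of BMP signalling, had 135 and 132 CPM in 42YS against 845 and 834 CPM in WT (-2.65), and SMAD3, a transducer of TGF-beta signals, had 40.1 and 39.5 CPM against 92.0 and 96.4 CPM (-1.24). ID2, an inhibitor of bHLH transcription factors and a known BMP target, went the other way, with 148 and 147 CPM against 58.5 and 66.5 CPM (1.23 ± 0.066, adjusted p = 1.25e-11). Of 31 WNT ligands, receptors and inhibitors 18 fell and 4 rose, or 2 without WT replicate 2 (median -0.96). LGR4, a receptor for R-spondins, had 21.0 and 22.7 CPM in 42YS against 136 and 131 CPM in WT, and the ligand gene WNT6 had 1.36 and 1.28 CPM against 15.1 and 14.4 CPM. DKK1, a secreted WNT inhibitor, rose to 5.22 and 5.60 CPM against 2.05 and 3.05 CPM. Of 14 NF-kB and cytokine genes 8 fell, and 0 rose by edgeR, by DESeq2 or at an unadjusted p under 0.05. Among the falls, CSF1, a macrophage growth factor, had 6.54 and 7.46 CPM in 42YS against 57.5 and 62.3 CPM in WT.

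Feedback and stress genes were split. DUSP5, a phosphatase that acts on ERK, fell to 9.94 and 8.57 CPM in 42YS against 75.9 and 77.8 CPM in WT, while DUSP6, its cytoplasmic relative, rose to 692 and 678 CPM against an average of 456 CPM. MYC, the growth-regulating transcription factor, had 201 CPM in each 42YS library against 83.6 and 84.2 CPM in WT (1.26 ± 0.143, adjusted p = 6.24e-07). In all, 13 of 29 immediate early and MAPK feedback genes fell and 6 rose. Of 18 genes of the NRF2 antioxidant pathway and metallothioneins 9 fell, and 0 rose by any of the same 3 criteria. With the empty vector pairs fitted as separate groups, 12 fell and 3 rose, beside 32.2 and 33.6% of all genes. With only the groups compared 14 fell and 3 rose, beside 5039 and 5015 of 13446 tested genes. TXNRD1, a thioredoxin reductase, had 275 and 274 CPM in 42YS against 1140 and 1130 CPM in WT (-2.05). Of 23 p53 targets 7 fell and 2 rose, where 25.3% of all tested genes fell and 24.5% rose. Among the falls, PLK2, a polo-like kinase, had 1.32 and 1.19 CPM against 155 and 163 CPM. CDKN1A, the cell cycle inhibitor p21, had 14.9 and 15.2 CPM in 42YS against 128 and 139 CPM in WT (-3.15). Its mean log2 (CPM + 0.1) was 3.92 in 42YS, 7.06 in WT, 4.09 in AQGscram and 6.41 in empty vector replicates 1 and 2. For PLK2 these means were 0.44, 7.32, 0.79 and 2.19.

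Cell cycle genes were higher in many cases and lower in none called, in small steps. Of 40 tested members 22 rose, and 0 fell by edgeR, by DESeq2 or at an unadjusted p under 0.05, with a median log2 fold change of 0.52. With the empty vector pairs fitted as separate groups all 40 rose, beside 33.6% of all genes. MKI67, the proliferation marker Ki-67, had 538 CPM in each 42YS library against 260 and 273 CPM in WT (1.01 ± 0.214, adjusted p = 0.000651). MCM7, a subunit of the replicative helicase, had 441 and 444 CPM against 268 and 277 CPM (0.70). CENPE, a kinetochore motor, had 138 and 134 CPM against 74.3 and 67.4 CPM (0.94). Groups did not overlap at these 3 genes, but the share of all tested genes without overlap is not given here. In the set-matched comparison of other libraries all 40 members were higher, with a median of 0.92, although neither 42YS nor WT entered it, and the part of the library profile in the 42YS result was not tested. Against AQGscram, within one profile, 3 of the 40 were higher, with a median of 0.00.

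Amino acid and endoplasmic reticulum stress genes, many of them controlled by ATF4, were also more often higher than lower. Of 30 tested members 14 rose and 3 fell (median 0.27). With the empty vector pairs fitted as separate groups 22 rose and 6 fell, beside 33.6 and 32.2% of all genes. STC2, a secreted glycoprotein induced by stress, had 126 and 125 CPM in 42YS against 48.1 and 48.8 CPM in WT (1.37 ± 0.207, adjusted p = 1.98e-05). CEBPG, a partner of ATF4, had 153 and 155 CPM against 77.1 and 77.6 CPM (1.00), and ATF4 itself 494 and 502 CPM against 314 and 331 CPM (0.63). ASNS, the asparagine synthetase, had 336 CPM in each 42YS library against 214 and 209 CPM in WT (0.67). Here the other libraries moved the opposite way: in the set-matched comparison 27 of the 30 were lower and 1 higher, with a median of -0.55.

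The largest rises were in genes at low levels in WT. PRLR, the prolactin receptor, had 6.29 and 6.34 CPM in 42YS against 0.410 and 0.422 CPM in WT (3.91 ± 0.545, adjusted p = 8.13e-06). MAGEC2 and MAGEC1, cancer-testis antigens, had 2.42 and 2.35 CPM and 3.82 and 2.88 CPM in 42YS, against 0.0585 and 0.234 CPM and 0.234 and 0.281 CPM in WT. MAGE genes are close relatives, and how reads shared between them were counted is not given in the sources used here. GNB3, a G protein beta subunit, had 17.8 and 17.7 CPM in 42YS against 2.75 and 3.47 CPM in WT (2.5 ± 0.183, adjusted p = 1.45e-09). ALDH1A2, a retinoic acid-synthesising enzyme, had 21.6 and 19.2 CPM against 4.57 and 5.11 CPM (2.07). CYP27B1, which makes the active form of vitamin D, had 7.98 and 7.79 CPM against 2.05 and 1.97 CPM (1.97).

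The rest of the 12 rose by log2 fold changes of 1.80 to 3.0. They were CLGN, a chaperone of the testis, ABCG1, a cholesterol exporter, GRB10, an adaptor that restrains insulin and IGF receptors, ZNF165, a zinc finger protein, ARHGAP44, a GTPase-activating protein, and DLX5, a homeobox factor. ABCG1 had 2.80 and 2.84 CPM in 42YS against 0.351 and 0.562 CPM in WT, and GRB10 had 3.91 and 3.54 CPM against 0.937 CPM in each WT library. Every rise of the 12 had both 42YS libraries above both WT libraries, which the choice of these genes required. GNB3 also stood apart from the 24 other libraries of the series, which held 1.87 to 10.1 CPM. Among these 24, an empty vector library was highest at PRLR (14.5 CPM), MAGEC1 (8.39 CPM), MAGEC2 (6.02 CPM), ALDH1A2 (64.3 CPM) and GRB10 (12.9 CPM). Each of these values was above both 42YS libraries. An empty vector library was also the highest at CLGN, ZNF165 and DLX5. At ABCG1, GNB3, CYP27B1 and ARHGAP44 a library of another construct was the highest.

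**Figure D3:**
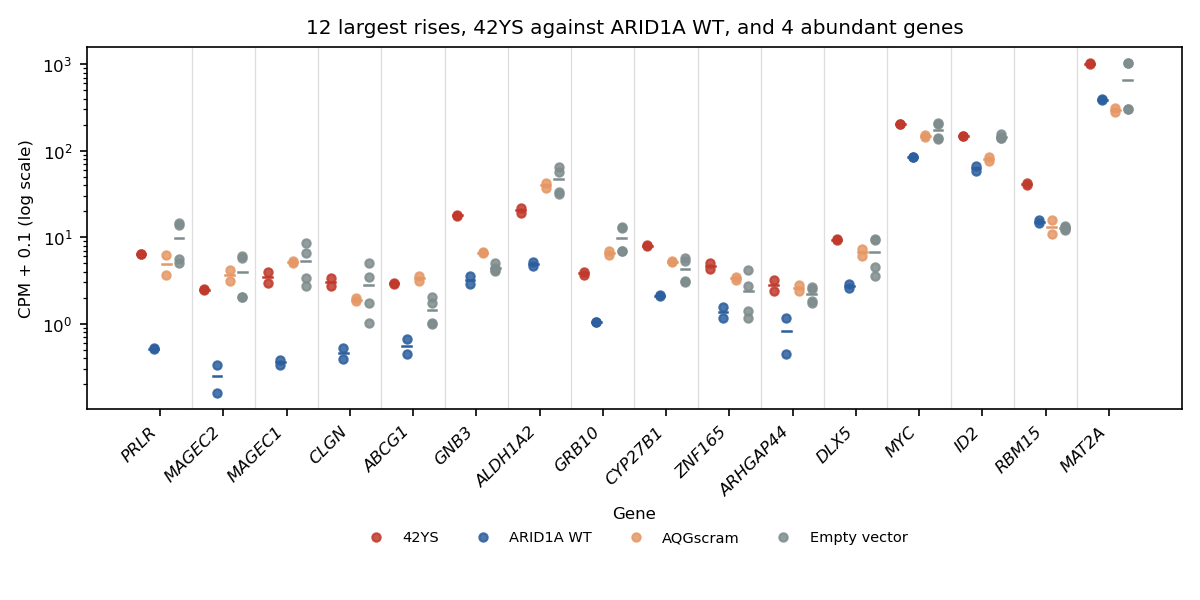
CPM plus 0.1 on a log axis for the 12 largest rises and for MYC, ID2, RBM15 and MAT2A, one point per library and a bar at each group mean, for 42YS, ARID1A WT, AQGscram and the empty vector. RBM15 is at 42.3 and 40.0 CPM in 42YS, above every point of the other groups. At PRLR the WT libraries are the low ones and the empty vector libraries the high ones.

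The remaining lists moved less or both ways. Their counts in the main fit stand beside 25.3% of all tested genes that fell and 24.5% that rose. Of 20 tested epithelial markers 9 fell and 1 rose (median -1.31), led by the keratin gene KRT18 at 10.7 and 9.89 CPM in 42YS against 45.9 and 46.1 CPM in WT. EPCAM and CDH1, which define many carcinomas, were under 1 CPM in both groups, while the 27 markers of the list summed to 195 and 203 CPM in 42YS against 243 to 251 CPM in WT. Cholesterol synthesis genes had 6 falls and 1 rise among 24. With the empty vector pairs fitted as separate groups 15 fell, where 32.2% of all genes fell and 33.6% rose. With only the groups compared 18 fell, where 5039 of all 13446 tested genes fell and 5015 rose. Interferon response genes had 7 falls and 6 rises among 32, with BST2, which tethers viruses at the cell surface, at 123 and 131 CPM in 42YS against 261 and 242 CPM in WT, and TRIM21, an antibody receptor inside cells, at 13.9 and 14.9 CPM against 6.97 and 6.93 CPM. HOX genes had 8 rises and 5 falls among 28. Their balance was unstable, with 5 rises and 3 falls without 42YS replicate 1, 4 and 6 without 42YS replicate 2, 4 and 4 without WT replicate 1, 5 and 4 without WT replicate 2, and 15 and 6 with only the groups compared. Glycolysis and hypoxia genes had 11 rises and 6 falls among 28, with HK2, a hexokinase, at 226 and 231 CPM in 42YS against 137 and 136 CPM in WT. Of 33 nuclear genes of oxidative phosphorylation 5 rose and 1 fell, of 15 heat shock genes 5 rose (2 or 3 with 1 of the 4 libraries left out) and 3 fell, of 17 histone genes 1 rose and 2 fell, and of 8 antigen presentation genes 1 rose and 1 fell. Of 51 cytosolic ribosomal protein genes 3 rose in the main edgeR fit and 0 fell there, by DESeq2 or at an unadjusted p under 0.05. That count depended on the fit: 27 rose and 1 fell with the empty vector split into its pairs, 37 rose and 5 fell with only the groups compared, and 0 rose without WT replicate 2.

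The endometrial and steroid hormone list had 9 falls and 4 rises among 25, where 25.3% of all tested genes fell and 24.5% rose. The 4 were PRLR, ALDH1A2, GRB10 and EMX2, a homeobox factor of the uterus, and among the falls IGFBP5, an IGF-binding protein, had 0.212 and 0.165 CPM in 42YS against 7.38 and 7.03 CPM in WT. Of 6 tested MAGE and other cancer-testis genes 4 rose and 0 fell by edgeR, DESeq2 or unadjusted p. In the set-matched comparison of other libraries described below, 5 were higher and 0 lower (median 1.05). Against the empty vector 0 were higher and 1 lower in 42YS (median -0.34). Against AQGscram 0 were called either way (median -0.38). The part of the library profile in these rises was not tested. Markers of immune cells were nearly absent: 1 of 11, CD68, passed the filter, at 1.91 and 1.28 CPM in 42YS against 14.8 and 16.5 CPM in WT, with a log2 fold change of -3.29 that was -1.38 without strand. None of 9 endothelial and blood markers passed.

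**Figure D4:**
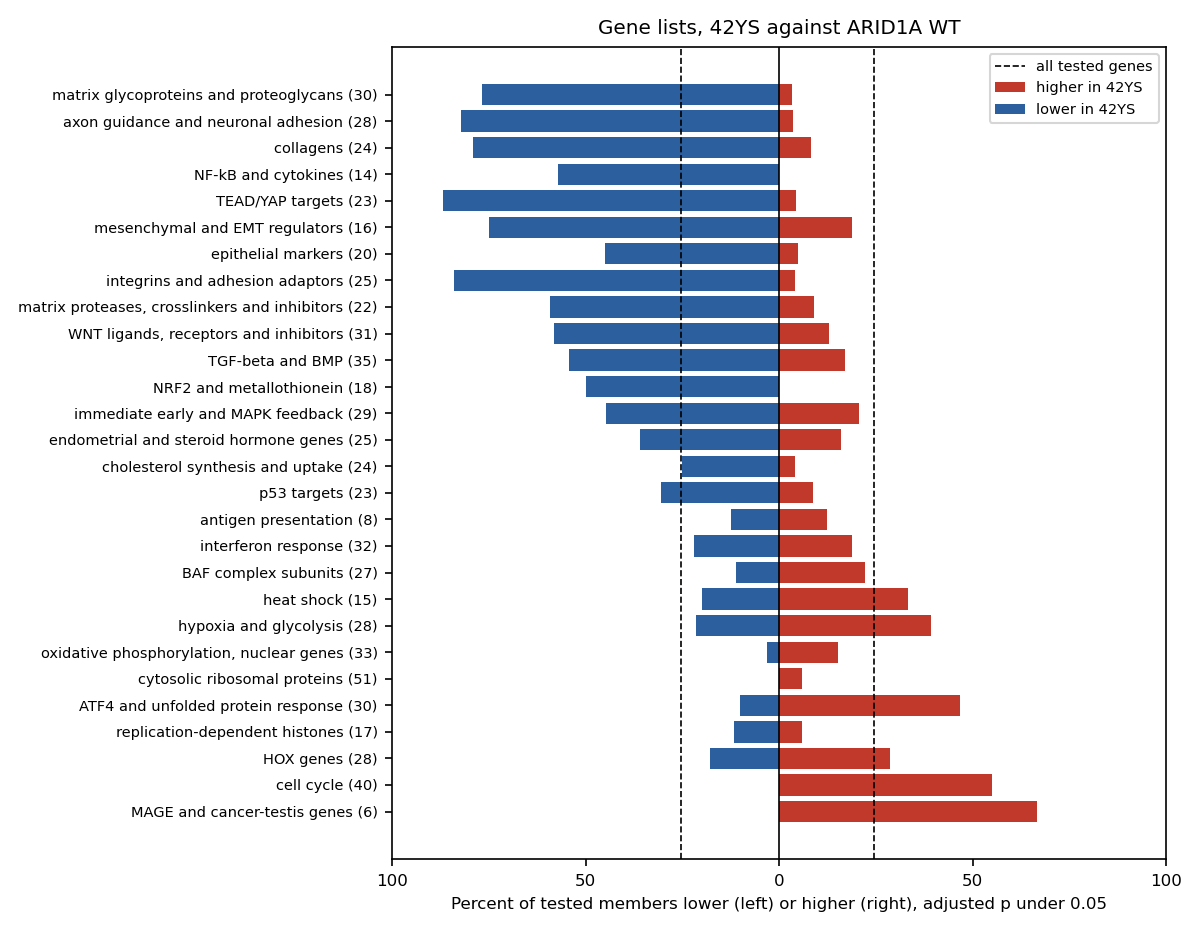
Percent of tested members of each gene list that were lower (left) or higher (right) in 42YS than in ARID1A WT at an adjusted p under 0.05, with the number of tested members in brackets and dashed lines at 25.3% and 24.5% for all tested genes. Lists run from the lowest median log2 fold change at the top to the highest at the bottom.

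Genes higher with ARID1B were chosen by a contrast that holds no 42YS, ARID1A WT or AQGscram library, although the filter, scaling and dispersions came from all 28 libraries. They were the 639 genes at least 4-fold higher in ARID1B WT than in empty vector replicates 3 and 4, which share its strand profile, in a fit that keeps the empty vector pairs apart, and ARID1B itself is one of them. In 42YS against ARID1A WT, 585 of the 639 (91.5%) were lower and 1 was higher, with a median log2 fold change of -3.98 (interquartile range -5.55 to -2.65). Over all genes in that fit 32.2% were lower and 33.6% higher. The median level over the 639 genes was -2.07 in 42YS on the scale of log2 (CPM + 0.1), 1.16 in ARID1A WT, -1.89 in AQGscram and -2.11 in empty vector replicates 1 and 2, which the choice of the genes did not contrast. Set against empty vector replicates 1 and 2, 75 of the genes were higher and 115 lower in 42YS (median 0.00; 30.5% each way over all genes), and 572 higher and 9 lower in ARID1A WT (median 3.96; 29.9 and 30.8% over all genes). These 2 comparisons share the empty vector libraries, and the 42YS libraries differ from them in strand profile. Most of the 639 genes were under 1 CPM in 42YS and in these empty vector libraries, with upper quartiles of -0.67 and -0.28 on the same scale. Between these 2 groups 449 genes were not called. At such low counts the median of 0.00 does not show equal levels.

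The 6 genes of this set with the highest level in WT were THBS1, CPA4, CLU, SPARC, ANXA2 and ITGB5. THBS1, the matrix glycoprotein thrombospondin 1, had 39.6 and 37.7 CPM in 42YS against 1130 and 1200 CPM in WT. CPA4, a carboxypeptidase, had 6.03 and 5.27 CPM against 543 and 553 CPM, and CLU, the secreted chaperone clusterin, 56.3 and 50.1 CPM against 455 and 458 CPM. ANXA2, a membrane-binding annexin, had 72.6 and 70.2 CPM against 409 and 407 CPM. All of them were low in 42YS without overlap, by log2 fold changes of -2.51 (ANXA2) to -6.60 (CPA4).

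**Figure D5:**
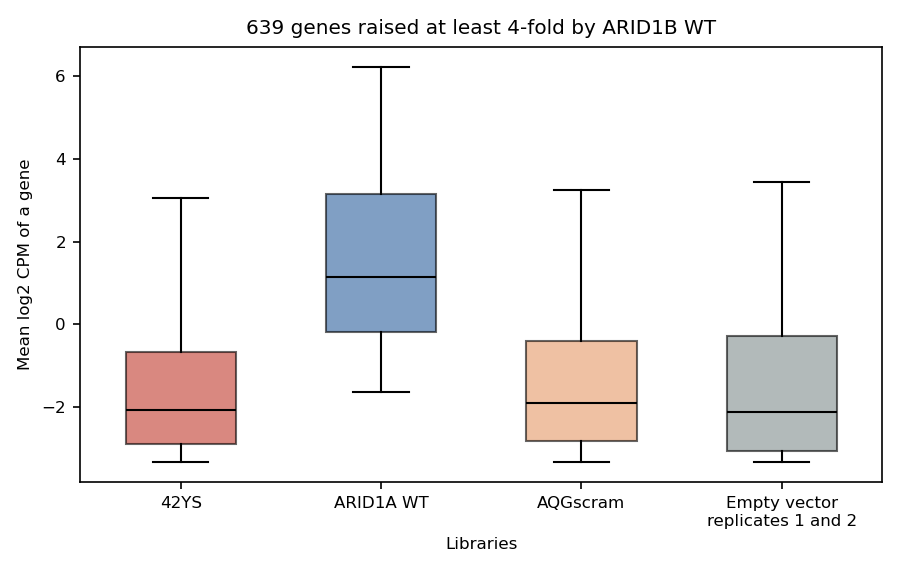
Mean log2 (CPM + 0.1) of the 639 genes raised at least 4-fold by ARID1B WT, in 42YS, ARID1A WT, AQGscram and empty vector replicates 1 and 2. Boxes span the quartiles with a line at the median and whiskers reach the 5th and 95th percentiles. The median is -2.07 in 42YS and 1.16 in ARID1A WT.

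Libraries that are neither 42YS nor WT were compared by profile: AQGscram and the ARID1B variants A457_G461del, Block13del and Block9del on one side, and the ARID1A constructs delIDR1, DBDmut and CBR with empty vector replicates 1 and 2 on the other. The sides differ in construct as well as in profile, and the effects of these cannot be told apart. In that set-matched comparison 5364 genes were higher (37.7%) and 5743 lower (40.4%). Of the 1577 genes at least 2-fold lower in 42YS than in WT, 1106 were lower there too, 658 of them at least 2-fold, and 112 were higher. The median of the 1577 there was -0.89, against -2.47 between 42YS and WT. By list, 20 of 30 matrix glycoproteins and proteoglycans were lower there and 2 higher. Of 31 WNT genes 22 were lower and 4 higher, and of 20 epithelial markers 14 were lower and 0 higher. Of the 465 genes at least 2-fold higher in 42YS, 247 were higher there and 65 lower, with a median of 0.35 against 1.26. Single genes differed: COL12A1 was at -0.00 there and LAMB1 at 0.14, MMP2 at 3.26 and TGM2 at 0.46, while LRRC15 was at -2.04, THBS1 at -1.79 and APOE at -2.63. Across 14220 genes the 2 sets of log2 fold changes had a Pearson r of 0.53, a description over genes that share libraries and scaling.

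AQGscram shares the strand profile of 42YS, and its replicates differ from each other. Against it, 1172 genes were higher in 42YS (8.24%) and 1072 lower (7.54%), of which 72 (0.506%) and 187 (1.32%) at least 2-fold. The number called was 3015 without AQGscram replicate 1, 1036 without AQGscram replicate 2, and 966 and 1110 without 42YS replicate 1 and 2. RBM15, part of the RNA m6A methylation machinery, had 42.3 and 40.0 CPM in 42YS, against 15.7 and 10.7 CPM in AQGscram and 15.7 and 14.5 CPM in WT. It was higher by a log2 fold change of 1.65 ± 0.15 against AQGscram (adjusted p = 1.36e-07) and by 1.45 against WT, and the 24 libraries that are neither 42YS nor WT held 8.73 to 23.9 CPM. Without AQGscram replicate 1 or 2 the log2 fold change was 1.95 or 1.40. MAT2A, the enzyme that makes the methyl donor S-adenosylmethionine, had 1020 and 1010 CPM in 42YS, against 308 and 284 CPM in AQGscram and 385 and 393 CPM in WT. It was called against AQGscram (1.77, adjusted p = 0.00534) but not without AQGscram replicate 2, where the log2 fold change was 1.72. The empty vector libraries, 1 group in this fit, had 1020 CPM in replicates 1 and 2 and 300 and 303 CPM in replicates 3 and 4. With these pairs fitted as separate groups the log2 fold change of MAT2A against AQGscram was 1.77 and the adjusted p 2.78e-20.

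The other genes that were highest relative to AQGscram were GNB3 (1.46), FAM46D (1.43, or 2.12 and 0.94 without AQGscram replicate 1 and 2), a poly(A) polymerase family member, and NPR1 (2.44), the atrial natriuretic peptide receptor. NPR1 had 0.637 and 0.783 CPM in 42YS against 0.0906 and 0.159 CPM in AQGscram, so its fold change rests on few reads. It was 2.12 without AQGscram replicate 1 and 2.90 without replicate 2. The level of NPR1 in 42YS was far below the 22.6 and 23.4 CPM of WT. Among the largest falls against AQGscram, COL1A1 had 0.765 and 0.947 CPM in 42YS against 7.84 and 8.70 CPM in AQGscram (-3.26 ± 0.258), and APOE, a lipid carrier, 7.60 and 7.09 CPM against 33.9 and 41.9 CPM (-2.37). SLC17A7, a vesicular glutamate transporter, CDC42EP5, a CDC42 effector, and LMTK3, a membrane kinase, fell by 3.08, 2.57 and 2.36 on the log2 scale. These falls and those of COL1A1 and APOE were called with either AQGscram library left out. For the list of 639 genes, 26 were higher and 91 lower in 42YS than in AQGscram, with a median of -0.25, beside 19.3 and 18.8% of all genes in the same fit. Most of these 639 genes were under 1 CPM in both groups.

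Against the 4 empty vector libraries, 2241 genes were higher in 42YS (15.8%) and 2559 lower (18%), of which 244 (1.72%) and 412 (2.9%) at least 2-fold. WT against the same libraries gave 2998 higher (21.1%) and 3336 lower (23.5%), of which 1264 (8.89%) and 311 (2.19%) at least 2-fold, and the 2 comparisons share the empty vector. The count for 42YS was 2413 and 2589 without its replicate 1 and 2, 8620 with empty vector replicates 1 and 2 only and 6350 with replicates 3 and 4 only. At the largest falls against WT, both 42YS and the empty vector were mostly under 1 CPM: MMP2 averaged 0.312 CPM in 42YS and 0.114 CPM in the empty vector, and COL12A1 averaged 0.146 CPM in 42YS and 0.162 CPM in the empty vector. TNC was lower in 42YS than in the empty vector (-3.43, adjusted p = 0.00729), whose pairs differ at this gene. TGM2 was higher than in the empty vector (2.17, adjusted p = 1.09e-06), as were LAMB1 (0.70) and SPARC (0.75). ASNS, higher in 42YS than in WT, was lower than in the empty vector (-1.20, adjusted p = 2.58e-11), and RBM15 was higher in 42YS than in the empty vector (1.69, adjusted p = 4.01e-09).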

How the data were processed

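Raw counts for 26346 gene symbols were deposited, not normalized by the authors. Per the submitters' processing notes, bcl2fastq, STAR 2.5.2b and Bowtie2 2.29 and genome build hg19 were used; the role of each tool and the gene annotation are not given in the sources used here. Polyadenylated RNA was sequenced, per the labels. Reads on the opposite strand were analysed, with the column of both strands as an alternative. The 4 summary lines that name no gene, 12.9 to 28.5% of reads, were left out. Depth was 16.6 to 27.9 M reads on genes.

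Genes passing filterByExpr (14220) were fitted over all 28 libraries in 13 groups with edgeR 4.0.16 (R 4.3.3), TMM scaling and the two-sided quasi-likelihood F test. Calls are at a Benjamini-Hochberg adjusted p under 0.05. SE was obtained from each log2 fold change and its F. In the main fit the empty vector was 1 group. Its replicates 1 and 2 held 87.6 and 84.5% of stranded gene reads on the opposite strand, and replicates 3 and 4 held 98.4 and 98.3%. The pooled spread, and so each p-value and SE of that fit, therefore includes the difference between these pairs. ARID1B-raised genes and the set-matched comparison came from a 14-group fit that splits the empty vector into replicates 1 and 2 and replicates 3 and 4. That fit called 9347 genes between 42YS and ARID1A WT, against 7087 in the main fit. Fits were tested on simulated data. Alternatives included DESeq2 1.42.0 and RLE factors. Replicate numbers do not pair the samples. Named genes are the BAF subunits, the 12 largest changes each way (called and at least 2-fold in both readings, average log2 CPM of at least 1, no overlap), up to 4 members per list by smallest p plus members needed for their role, the 5 largest each way against AQGscram, and the 6 highest ARID1B-raised genes. Members and lists were chosen with earlier results of these data known. Reference sequence is from GENCODE 29 and RefSeq.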

Additional observations from a re-analysis of the deposited data

How the results depend on the processing

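The 7087 genes called between 42YS and ARID1A WT stayed within 1.5 times under the alternatives run (5506 to 5682 with 1 of the 4 libraries left out, 10047 with the replicate block), and the calls in both readings likewise (5060 to 5256 with 1 library left out). Of 155 called changes of genes picked by the naming rule or for their role, 145 to 155 kept their call under each alternative (137 of the 139 tested at an average log2 CPM of at least 1), and none of the called ones reversed. With only the groups compared, all 40 cell cycle genes and 37 of 51 ribosomal protein genes were higher in 42YS than in WT. Another 5 of the 51 were lower. Over all 13446 genes tested in that fit, 5015 were higher and 5039 lower. Same-numbered libraries of 42YS and WT had correlated deviations of 0.02 only, and those of 42YS and AQGscram 0.06, so the numbers share no pairing. Against AQGscram, 2244 calls became 935 with only the groups compared, 2132 with the replicate block, 966 to 3015 with 1 library left out, and 5422 with the empty vector split into its pairs, an alternative added after seeing the data. Against the empty vector, 4800 calls became 722 with only the groups compared, 9391 with the replicate block, 8620 with empty vector replicates 1 and 2 only, and 2413 to 5830 with 1 library left out; the cause was not tested. The lowest of these were without a 42YS replicate (2413 and 2589) and, against AQGscram, without 42YS replicate 1 or 2 (966 and 1110) or AQGscram replicate 2 (1036). With an arm of 1 library, that library is assumed to vary like the other groups. Signs turned for BAF subunits that were not called. SMARCA4 was at -0.106 unstranded, -0.0465 with RLE and with DESeq2, -0.0126 with no filter, -0.0229 at an average log2 CPM of at least 1, -0.0217 with only the groups compared, -0.0219 with the replicate block and -0.0131 to 0.0185 with 1 library left out. With 1 library left out SMARCD1 was at -0.0540 to 0.0605, DPF3 at -0.362 to 0.225 and PHF10 at -0.0452 to 0.00604. FAM46D against AQGscram had an adjusted p of 0.0545 with only the groups compared. The BAF subunits BCL7C, SMARCC2 and SS18, the peptidase ERAP1 and VIM lost their call under several alternatives.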

Other observations

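Genes lowered at least 2-fold by ARID1B WT against empty vector replicates 3 and 4, a list added after seeing the data, numbered 213. In 42YS against ARID1A WT, 150 of them were higher (70.4%) and 8 lower, with a median log2 fold change of 0.91, where 33.6% of all genes were higher in the same fit. Against AQGscram, 35 were higher and 41 lower in 42YS, with a median of -0.03.

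Some calls between 42YS and WT were present with strand only. ABALON, CCDC151, MROH8 and ATP6V1C2 had log2 fold changes of -4.01, -3.99, -3.87 and -3.76 on the opposite strand and -0.41, -0.21, -0.29 and 0.28 without strand, and none of the 4 was called without strand. ZACN, at -3.61, was not tested without strand.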
